A study of Mus musculus with 24 samples.

Results

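The response of the hippocampus to an enriched environment (EE) was examined in control mice, by comparing the transcripts of 3 EE-housed mice with those of 3 mice kept in standard cages (SC). These are 6 of the 12 mice of the experiment, each measured as 1 library of whole-hippocampus RNA with its 2 sequencing runs merged. All were females between 3 and 6 months of age on a C57BL/6J background by the study's methods, where the labels write C57BL/6. The control mice are littermates of the CBP-ifKOs that lack the CaMKIIα-creERT2 transgene and received tamoxifen, so that the lysine acetyltransferase CBP, encoded by Crebbp, was left in place. CBP-ifKOs, in which tamoxifen-activated Cre under the CaMKIIα promoter removes CBP from forebrain excitatory neurons, were used only as a second set of mice housed in SC or EE. EE consisted of a large box shared by more mice than a cage, with running wheels, tubing and toys that were rearranged regularly, so that exercise, company and change of surroundings come together and cannot be told apart. The hippocampus was taken at the end of the housing period from mice in either housing. Of the 55471 genes in the count table, 17372 passed the expression filter in the 6 mice and form the set described here. The libraries of the 6 mice held between 26874015 and 27971488 counts, so that depth differed little with housing. Crebbp itself lay between 68.0 and 80.3 CPM (counts scaled to the total of the library) in the 6 mice, with a log2 fold change of -0.05 between EE and SC. Markers of the hippocampal cell layers were present, with 18 of 18 dentate granule cell, 14 of 15 CA1 and 20 of 21 CA2 and CA3 genes passing the filter. EE mouse 1 stood apart by transcripts of the choroid plexus, so the fits were repeated without it, and values without it are given beside results that it changes most. Where nothing else is said, p-values set a difference against the spread among the 3 mice of each group. The spread of a gene is partly estimated from other genes, with a median of 5.99 prior degrees of freedom beside 4 residual ones.

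EE is a classic means of raising sensory, social and motor experience in rodents, and it is known for its effects on learning, on the birth and survival of dentate granule cells and on synapses. Neuronal activity acts on transcription in successive waves. Immediate early genes such as Fos and Arc are induced within minutes and decay quickly, whereas late response genes, many of which encode secreted proteins such as BDNF, neuropeptides and pentraxins, follow and last longer. The level of an immediate early gene therefore follows the recent activity of the cells, and that of a late response gene follows a longer stretch of it.

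One gene of the 17372 (0.00576%) passed an adjusted p of 0.05 between EE and SC in control mice, by the quasi-likelihood test of edgeR, and without EE mouse 1 the count was again 1 (0.00566%). When all 12 mice shared 1 estimate of the spread, edgeR called 0 genes between the control groups, while 768 (4.21%) were below an unadjusted p of 0.05, and 901 (5.15%) with the CBP-ifKO counts halved. In this edgeR fit of the 6 mice none of the genes named below passed the adjusted threshold, so they are given as higher or lower in EE with their values.

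**Figure D1:**
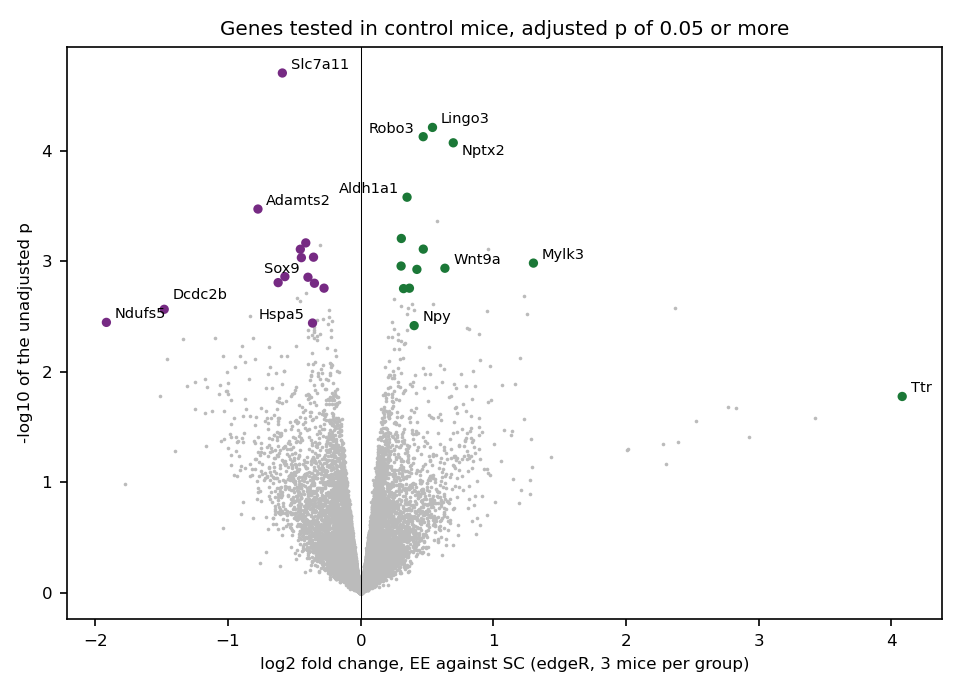
Each point is a gene tested in control mice with an adjusted p of 0.05 or more, with the log2 fold change between EE and SC on the x axis and the negative log10 of the unadjusted p from edgeR on the y axis. Purple and green points are ranked or labeled genes lower and higher in EE. Slc7a11, Lingo3, Robo3 and Nptx2 lie highest, and Ttr lies far to the right at a modest p.

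Below this threshold the response could only be ranked. With DESeq2 on the same counts 14 genes passed, 8 higher and 6 lower in EE, among them Lingo3, Robo3, Nptx2, Aldh1a1, Wipf3, Mfsd4a, Slc7a11, Adamts2 and St3gal1. At an unadjusted p below 0.05 there were 674 genes (3.88% of those tested), of which 287 (1.65%) were higher and 387 (2.23%) lower in EE. Without SC mouse 3 there were 443 of 17640 (2.51%), so that this count moved by over 1.5 times with 1 mouse. The 3 EE mice lay above or below all 3 SC mice for 1587 genes (9.14%), with 724 higher (4.17%) and 863 lower (4.97%). With 3 mice against 3, an exact permutation test of a single gene cannot give a two-sided p below 0.1. None of the 5 principal components of the 6 libraries separated the housing groups, the first of which held 33.9% of the variance.

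Of the 12 protein-coding genes with the smallest p among those higher in EE, Lingo3, Robo3 and Nptx2 came first. Lingo3, a transmembrane leucine-rich repeat protein of the family to which the Nogo receptor partner LINGO1 belongs, was at 29.9, 25.0 and 26.0 CPM in SC and at 37.7, 39.8 and 40.4 CPM in EE. Robo3, a Roundabout receptor of axon guidance, was at 31.3, 33.3 and 33.0 CPM in SC and at 42.3, 48.5 and 44.5 CPM in EE. Nptx2, a secreted pentraxin that gathers AMPA receptors at synapses on interneurons, was at 14.97, 15.3 and 19.3 CPM in SC and at 24.6, 28.7 and 27.1 CPM in EE. The EE mice lay above the SC mice for all 3 genes without overlap. Their log2 fold changes were 0.54 for Lingo3, 0.47 for Robo3 and 0.70 for Nptx2 (standard errors 0.08, 0.07 and 0.11), and each had an adjusted p of 0.295 in edgeR. Without EE mouse 1 the log2 fold changes were 0.58, 0.52 and 0.76.

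The next genes of this ranking were Aldh1a1, Wipf3 and Mfsd4a. Aldh1a1, an enzyme that makes retinoic acid, was at 57.7, 56.1 and 55.4 CPM in SC and at 67.6, 74.8 and 73.3 CPM in EE, a log2 fold change of 0.35. Wipf3, an actin regulator, was at 378, 376 and 368 CPM in SC and at 432, 489 and 466 CPM in EE, a log2 fold change of 0.31. In both genes each EE mouse was above every SC mouse. Mfsd4a, a transporter of the major facilitator superfamily, had a log2 fold change of 0.47. Wnt9a, a secreted Wnt ligand, was at 10.2, 8.33 and 11.1 CPM in SC and at 14.5, 18.2 and 13.5 CPM in EE, a log2 fold change of 0.64 (standard error 0.14). The remaining genes were Mylk3, a myosin light chain kinase, Bok, a member of the BCL-2 family, Car7, a neuronal carbonic anhydrase that shapes GABA responses, Mlip and Hunk, with log2 fold changes of 1.30, 0.30, 0.42, 0.37 and 0.32. Mylk3 had the largest fold change of the 12 but was scarce, at 1.27, 1.0 and 1.17 CPM in SC and at 2.37, 4.13 and 2.04 CPM in EE.

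Among the 12 ranked genes lower in EE was Slc7a11. It encodes xCT, the cystine and glutamate antiporter through which glia release glutamate and take up cystine for glutathione. Slc7a11 was at 46.6, 47.5 and 52.4 CPM in SC and at 34.5, 30.03 and 32.7 CPM in EE. The groups were separate, at 48.8 ± 3.12 CPM and 32.4 ± 2.26 CPM (SD, n = 3 each). Its log2 fold change was -0.59 (standard error 0.08) at an adjusted p of 0.172 in edgeR. Adamts2, the protease that trims the amino end of fibrillar procollagens, was at 16.5, 15.6 and 17.3 CPM in SC and at 12.2, 8.10 and 8.54 CPM in EE, a log2 fold change of -0.77. Here EE mouse 1 was the EE mouse nearest to the SC mice, and without it the value was -0.98. St3gal1, a sialyltransferase, had a log2 fold change of -0.46, and Hrk, a BH3-only inducer of neuronal apoptosis, one of -0.36. Sox9, the transcription factor of astrocytes and neural stem cells, was at 31.2, 38.2 and 32.6 CPM in SC and at 27.0, 26.4 and 24.1 CPM in EE, a log2 fold change of -0.40 (standard error 0.09). Others of the 12 were Zbtb40, Gm7694, Colec12, Gm20219, Traip and Rnf41, with log2 fold changes between -0.62 and -0.28. The fit without EE mouse 1 added Fabp7, a fatty acid binding protein of radial glia and astrocytes, and Ndrg1, at -0.65 and -0.43. With all 6 mice their values were -0.49 and -0.27, and for Ndrg1 the groups then overlapped, since EE mouse 1 was at 115 CPM among the SC mice. Ndrg1 was at -0.15 without EE mouse 2. Larger fold changes between groups that did not overlap were found mainly in scarce genes. Arr3 (0.95), Olfr287 (1.01) and Rad51ap2 (0.85) were higher and the complement gene C3 (-1.001), the collagen gene Col24a1 (-0.89) and Jph2 (-0.87) were lower in EE, at group means between 0.716 and 2.12 CPM. Olfr287, which shares exonic bases with a gene on its own strand, was at 0.66 without EE mouse 1 and at 0.59 without SC mouse 1, Rad51ap2 at 0.54 without EE mouse 2, and C3 at -1.52 without EE mouse 1.

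**Figure D2:**
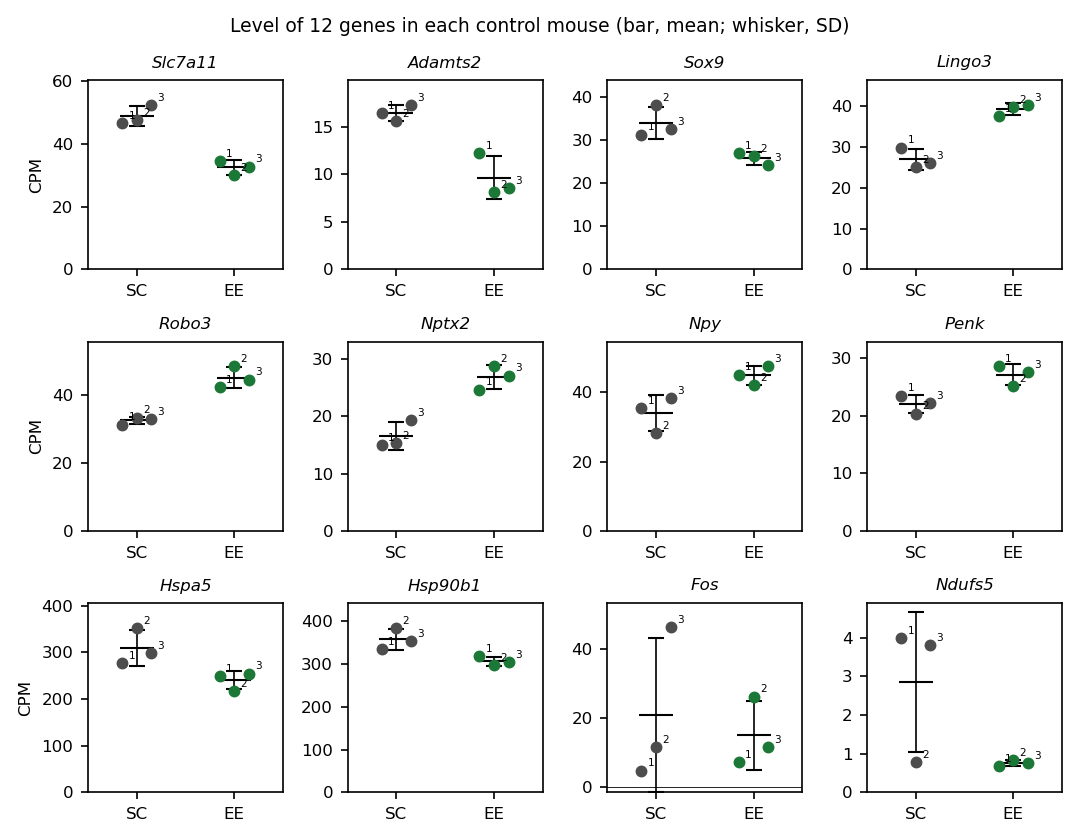
Each panel gives the level of 1 gene in CPM for the 3 SC mice (gray) and the 3 EE mice (green), numbered by mouse, with the mean as a bar and the SD as a whisker. The groups are separate for Slc7a11, Adamts2, Sox9, Lingo3, Robo3, Nptx2, Npy, Penk, Hspa5 and Hsp90b1, whereas Fos is spread by single mice in both groups and SC mouse 2 sits with the EE mice for Ndufs5.

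Genes were then read in lists. Of the 30 late response and secreted activity genes, 7 were higher and 1 lower in EE at an unadjusted p below 0.05, against 1.65% and 2.23% of all genes. The median log2 fold change of the list was 0.11, where the median of all genes was 0.00 and the pooled SD of the list's median between mice of a group was 0.04. It stayed positive in each of the 14 other fits with a value, from 0.05 without SC mouse 2 to 0.17 without SC mouse 3. Npy, the neuropeptide of a class of hippocampal interneurons, was at 35.3, 28.1 and 38.4 CPM in SC and at 45.1, 42.1 and 47.5 CPM in EE, a log2 fold change of 0.40. Penk, the enkephalin precursor, was at 23.5, 20.4 and 22.1 CPM in SC and at 28.6, 25.1 and 27.6 CPM in EE, a log2 fold change of 0.30. In both peptide genes the lowest EE mouse was above the highest SC mouse. Rasgrp1, an exchange factor for Ras, had a log2 fold change of 0.21, with 716 to 800 CPM in SC and 860 to 936 CPM in EE. Ptgs2, Scg2 and Acan, which were picked once their values had been seen, had log2 fold changes of 0.33, 0.20 and 0.31. Ptgs2 was at 0.18 without EE mouse 2, and Scg2 at 0.12 with limma voom and at 0.13 without EE mouse 2. They encode the inducible cyclooxygenase, secretogranin II and the perineuronal net proteoglycan aggrecan. Nptx1, the paralog of Nptx2 and also named after its values were seen, was the member lower in EE, at 746, 732 and 726 CPM in SC and at 626, 693 and 651 CPM in EE. The pentraxins therefore differed in direction. Bdnf, the neurotrophin most often measured in EE, was at 46.4, 45.2 and 53.8 CPM in SC and at 47.1, 63.7 and 57.1 CPM in EE. Its groups overlapped, and its log2 fold change was 0.21 (standard error 0.11) with all 6 mice, 0.32 without EE mouse 1 and 0.10 without EE mouse 2.

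The immediate early genes gave another picture. None of the 30 was higher and 4 were lower in EE at an unadjusted p below 0.05, against 1.65% and 2.23% of all genes. Of the 30 fold changes 7 were positive (23.3%, against 50.2% of all genes), but without EE mouse 1 14 were (46.7%) and the median was -0.03. The median of the list was -0.12, but single mice set it, since the pooled SD between mice was 0.33. Fos was at 4.72, 11.6 and 46.3 CPM in SC and at 7.15, 26.2 and 11.5 CPM in EE. SC mouse 3 had the highest level of Fos, Arc, Egr1 and Npas4 among the 6 mice. Arc, whose protein acts in AMPA receptor removal, was at 84.8, 92.4 and 224 CPM in SC and at 82.6, 164 and 131 CPM in EE. Without SC mouse 3 the median of the list was 0.29, so its direction turned on 1 mouse. The 4 members with a low p were Nr4a2 (-0.33), Maff (-1.03), Jun (-0.21) and Klf6 (-0.18), of which Maff was at -0.54 and Jun at -0.10 without SC mouse 3. Nr4a2, an orphan nuclear receptor needed for long-term memory, was at 72.8, 67.0 and 85.0 CPM in SC and at 62.0, 61.5 and 55.7 CPM in EE, and its groups did not overlap. Egr1 and Npas4 had log2 fold changes of -0.16 and 0.18 (standard errors 0.26 and 0.35).

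Chaperones and enzymes of the endoplasmic reticulum made up most of the second list that leaned 1 way. Cells raise these genes through the unfolded protein response when the folding capacity of the endoplasmic reticulum is exceeded, and the transcription factors ATF6 and XBP1 act on an element in their promoters. Of the 30 genes of heat shock and the unfolded protein response, none was higher and 8 were lower in EE at an unadjusted p below 0.05, against 2.23% lower among all genes. Hspa5, which encodes the lumenal chaperone BiP, was at 277, 353 and 298 CPM in SC and at 248, 218 and 254 CPM in EE, a log2 fold change of -0.36 (standard error 0.10). Hsp90b1, which encodes GRP94, was at 334, 384 and 352 CPM in SC and at 317, 297 and 304 CPM in EE, a log2 fold change of -0.22 (standard error 0.07). Pdia6, a protein disulfide isomerase, was at 122, 141 and 132 CPM in SC and at 114, 92.9 and 117 CPM in EE, a log2 fold change of -0.29. None of these 3 genes overlapped between the groups, and SC mouse 2 was the highest and EE mouse 2 the lowest of the 6 mice for each. Sdf2l1, a partner of BiP, had a log2 fold change of -0.39. The other 4 were Pdia4, Manf, Hspa1a and Hspa1b, with values between -0.39 and -0.23 in log2 units, which were added once their values had been seen. Hspa1a and Hspa1b are nearly identical in sequence, so that reads may be split between them or lost. The median of the list was -0.12, with a pooled SD between mice of 0.06, and it was negative in each of the 14 other fits with a value, from -0.16 without EE mouse 3 to -0.07 without EE mouse 2. Pdia4 and Manf were both at -0.14 without EE mouse 2. Hsp90ab1, the cytosolic chaperone with the most counts in the list, was at 1757, 1696 and 1779 CPM in SC and at 1766, 1707 and 1782 CPM in EE, so that it differed by less than the spread between mice.

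The promoters of this list were searched for the endoplasmic reticulum stress element, which is CCAAT, then any 9 bases, then CCACG, read on both strands, in the 250 bases before the RefSeq start (GRCm38.p6). It was present in 6 of the 24 members with a promoter in the reference table and in 0.113% of the 32851 promoters of all genes. The sites are shown because they are shared by the members with the smallest p and by members whose p did not pass, with the element in capitals and the strand of the gene as read.
Hspa5: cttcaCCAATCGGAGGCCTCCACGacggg
Hsp90b1, distal: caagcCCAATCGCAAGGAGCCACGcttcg
Hsp90b1, proximal: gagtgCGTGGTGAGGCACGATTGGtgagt
Pdia6: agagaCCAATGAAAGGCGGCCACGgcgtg
Calr: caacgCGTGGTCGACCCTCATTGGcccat
Canx: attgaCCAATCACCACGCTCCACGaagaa
Creld2: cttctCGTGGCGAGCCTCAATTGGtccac
These sites lie at chr2:34772020-34772048 (Hspa5), chr10:86705633-86705661 and chr10:86705528-86705556 (Hsp90b1), chr12:17266486-17266514 (Pdia6), chr8:84847070-84847098 (Calr), chr11:50325795-50325823 (Canx) and chr15:88819515-88819543 (Creld2). Hspa5, Pdia6 and Creld2 are on the plus strand and the others on the minus strand. Calr, Canx and Creld2, which encode calreticulin, calnexin and a BiP-associated protein and are named for this search, had log2 fold changes of -0.19, -0.12 and -0.06. Without EE mouse 2 Calr was at -0.09 and Creld2 at 0.04. Over the whole list 26 of the 30 fold changes were negative, with the element or without it. Hsp90b1 was the member with a pair of elements, in opposite orientation, which are seen in this stretch of 185 bases before its start (chr10:86705510-86705694, minus strand).
Hsp90b1: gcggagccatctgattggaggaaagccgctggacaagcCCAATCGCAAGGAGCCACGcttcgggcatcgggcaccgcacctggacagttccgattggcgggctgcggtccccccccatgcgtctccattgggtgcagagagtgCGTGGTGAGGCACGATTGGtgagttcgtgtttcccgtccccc
The same search for the cyclic AMP response element TGACGTCA, to which CREB and its coactivator CBP are recruited, found it in 4 of the 20 late response genes with a promoter and in 1.55% of all promoters. For both elements, the share of promoters describes the list and not its change in EE. Among the 4 late response genes with this element, Scg2 was the member with an unadjusted p below 0.05 in EE. Its element lies at chr1:79440077-79440104 on the minus strand.
Scg2: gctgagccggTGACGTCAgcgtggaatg

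The next list held genes of neural stem cells and young neurons. At an unadjusted p below 0.05, 2 of the 23 members tested were higher and 3 lower in EE, against 1.65% and 2.23% of all genes. Of the 23 fold changes 17 were negative, and the median of the list was -0.12 with a pooled SD of 0.05, from -0.13 to -0.08 in the 14 other fits with a value. Hopx, which marks quiescent stem cells of the dentate gyrus, was at 51.1, 53.3 and 49.4 CPM in SC and at 59.4, 62.4 and 59.4 CPM in EE, a log2 fold change of 0.24. Igfbpl1, expressed in neuronal progenitors, had a log2 fold change of 0.89 at levels between 0.64 and 1.54 CPM. Sox11, a factor of newborn neurons, was at 20.2, 19.7 and 22.3 CPM in SC and at 17.8, 17.9 and 16.1 CPM in EE, and Nes, the nestin gene of progenitors and vessels, had a log2 fold change of -0.28. Dcx, the doublecortin gene of newborn neurons, was at 22.2, 30.7 and 27.7 CPM in SC and at 22.4, 29.6 and 21.98 CPM in EE, which overlapped. None of the 20 cell proliferation genes tested passed an unadjusted p of 0.05. In whole tissue, fewer cells of a type and less RNA per cell cannot be told apart.

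Few growth factor and guidance genes had a low p. Among the 33 neurotrophic and growth factor genes tested, none was higher and 2 were lower in EE at an unadjusted p below 0.05 (1.65% and 2.23% of all genes). The 2 were Igfbp5 (-0.37) and Vegfa (-0.21, and -0.14 without EE mouse 2). Without EE mouse 1, 1 was higher and 4 were lower, against 1.89% and 2.51% of all genes. Of the 33 fold changes 22 were negative, and the median of the list was -0.05 with a pooled SD of 0.02. The median was negative in each of the 14 other fits with a value, from -0.05 to -0.02. Igf1 was at 8.32, 8.04 and 8.55 CPM in SC and at 7.98, 8.52 and 7.79 CPM in EE. Of the 41 genes of axon guidance and Wnt signaling, Lingo3, Robo3 and Wnt9a were higher and Wnt7a (-0.37) was lower at that p. Of all genes 1.65% were higher and 2.23% lower. The median of this list was -0.02, and it was 0.01 without SC mouse 2 and -0.05 without SC mouse 3.

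Synaptic genes were nearly level. The medians were 0.00 for 32 genes of presynaptic release, 0.01 for 34 genes of glutamate receptors and their scaffold and 0.04 for 16 GABA receptor genes. Without EE mouse 2 the glutamate and GABA medians were -0.02 and -0.05, of the opposite sign, and without EE mouse 1 they were 0.03 and 0.07. No member of these lists was higher and 4 were lower at an unadjusted p below 0.05, where 1.65% and 2.23% of all genes were. They were the calcium sensors Doc2b and Syt4 (-0.18 and -0.17), the kainate receptor subunit Grik3 (-0.25) and the GABA-A receptor subunit Gabra3 (-0.15). Doc2b was at 134, 147 and 129 CPM in SC and at 117, 122 and 122 CPM in EE, without overlap. Among the 28 interneuron markers Npy was higher at that p, while Nos1 (-0.29), Dlx1 (-0.17) and Chrna2 (-0.57) were lower. Of all genes 1.65% were higher and 2.23% lower, and the list median was -0.02. Of the 14 CA1 markers tested, Man1a (0.31), Ndst4 (0.33) and Pex5l (0.20) were higher and none lower at an unadjusted p below 0.05, against 1.65% and 2.23% of all genes. The list median was 0.11 with a pooled SD of 0.08, and 0.06 without EE mouse 3. Ndst4 was at 0.20 without EE mouse 2. Man1a, a mannosidase of the Golgi, was at 100.4, 92.3 and 97.6 CPM in SC and at 108, 130 and 121 CPM in EE. For CA2 and CA3 markers Bok and Hs3st4 (0.14) were higher and none lower, of 20 tested, against 1.65% and 2.23% of all genes. For the 18 dentate granule cell markers, with a median of -0.02, Penk and Lct (0.27) were higher and Jun lower, against the same shares. Without EE mouse 1 4 were higher and 0 lower, against 1.89% and 2.51% of all genes. The median was then 0.01, so that its sign turned on 1 mouse. Drd1 (0.27), the D1 dopamine receptor gene, was the 1 of 24 genes of other brain regions that was higher, and 2 were lower, against 1.65% and 2.23% of all genes. Without EE mouse 1 0 were higher and 4 lower, against 1.89% and 2.51% of all genes, and the list's median moved from 0.00 to -0.09.

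Glial lists held few members with a low p. Of 24 astrocyte genes Sox9 and the connexin gene Gja1 (-0.16) were lower and none higher, where 2.23% of all genes were lower. No gene of the microglia (26), myelin and oligodendrocyte (25) or oligodendrocyte precursor (14) lists passed an unadjusted p of 0.05. Without EE mouse 1, 4 of the myelin genes were lower at that p, against 2.51% of all genes, and the list's median moved from -0.03 to -0.14. Without EE mouse 2 the median of the myelin list was 0.07, of the opposite sign. Genes of the extracellular matrix and its proteases had 1 member higher and 5 lower of 45 tested, against 1.65% and 2.23% of all genes. Besides Adamts2, the lower members were led by the collagens Col5a1 (-0.40) and Col12a1 (-0.28) and by Tnc (-0.40), the tenascin-C gene. Col5a1 was at 28.2, 34.0 and 28.3 CPM in SC and at 25.9, 22.2 and 20.3 CPM in EE, without overlap.

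The remaining lists were small in effect. Of 25 glucocorticoid target genes, the metallothioneins Mt1 (0.22) and Mt2 (0.31) and Hif3a (0.43) were higher and none lower at an unadjusted p below 0.05, against 1.65% and 2.23% of all genes, with a list median of 0.07 that was 0.01 without SC mouse 1 and 0.11 without EE mouse 1. Hif3a was at 0.26 without SC mouse 1 and at 0.27 without EE mouse 3. Tef (-0.18), a clock output factor at 474, 476 and 456 CPM in SC and at 413, 408 and 418 CPM in EE, was the 1 clock gene of 23 with a low p. Among 25 genes of chromatin acetylation Hdac1 (-0.47) was the 1 such member. Of all genes 3.88% had an unadjusted p below 0.05 in either direction, so the counts of these 2 lists are near that share. In the respiratory chain list 64 of 74 genes had a positive fold change (86.5%, against 50.2% of all genes), yet the median of 0.05 was smaller than its pooled SD between mice of 0.10. It was -0.01 without SC mouse 2 and 0.11 without EE mouse 2. The cytosolic ribosomal proteins had a median of 0.02 with a pooled SD of 0.11, and none of the 75 tested passed an unadjusted p of 0.05. All 7 tested transcripts of the mitochondrial genome had positive fold changes, with a median of 0.08 and a pooled SD of 0.08, and mt-Nd5 (0.13) passed an unadjusted p of 0.05. Without EE mouse 1 6 of the 7 were positive, the median was 0.02 and 0 passed that p.

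**Figure D3:**
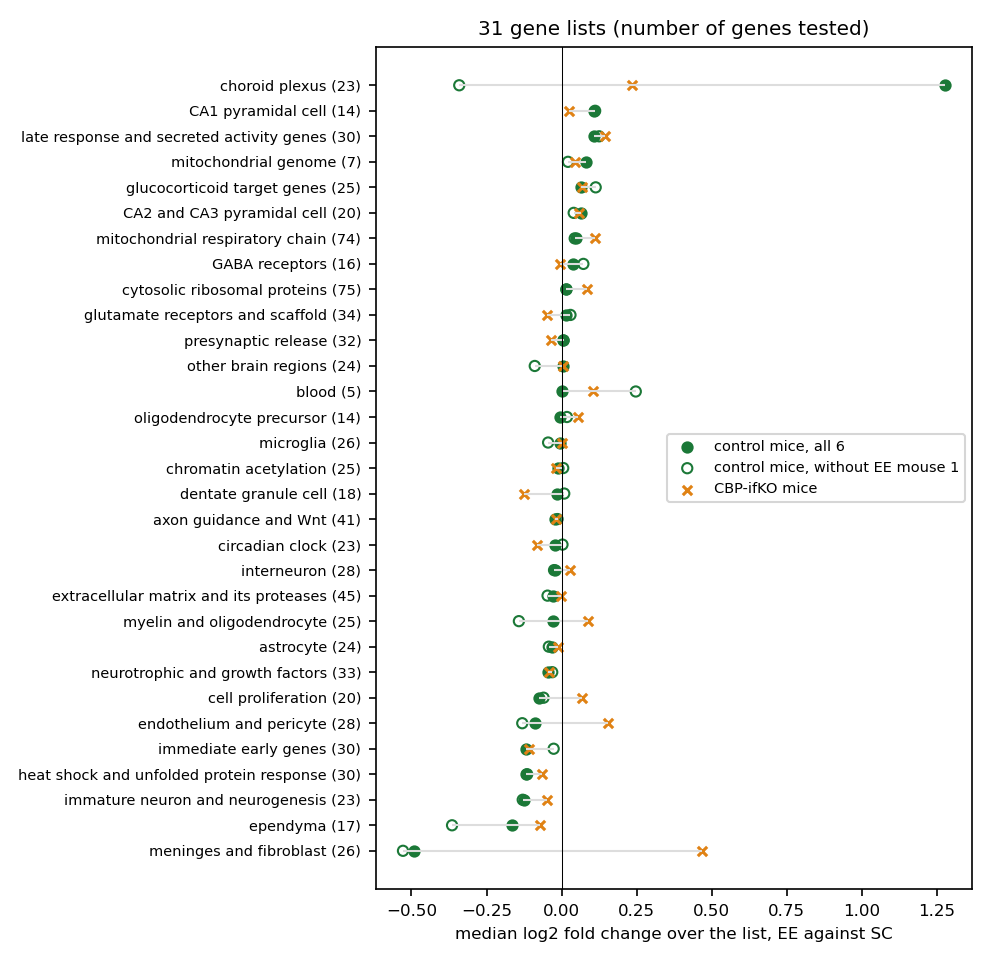
For each of 31 gene lists, with the number of genes tested in parentheses, the x axis gives the median log2 fold change between EE and SC in the 6 control mice (filled circles), without EE mouse 1 (open circles) and in CBP-ifKOs (crosses). The choroid plexus list moves from 1.28 to -0.34 when EE mouse 1 is left out, the meninges and fibroblast list is negative in control mice and positive in CBP-ifKOs, and most other lists lie near 0.

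The library of EE mouse 1 stood apart from the rest by genes of the choroid plexus, the epithelium that secretes cerebrospinal fluid. Ttr, the transthyretin gene that is the hallmark of the choroid plexus, was at 25.5, 21.04 and 20.3 CPM in SC, at 1104 CPM in EE mouse 1 and at 19.2 and 8.61 CPM in the other EE mice. The 23 choroid plexus genes tested summed to 2253 CPM in EE mouse 1 and to between 275 and 356 CPM in the other 5 mice. The fold changes of this list follow that mouse alone. Its median log2 fold change was 1.28 with 8 members higher at an unadjusted p below 0.05, and without EE mouse 1 it was -0.34 with 0 higher and 6 lower, against 1.89% and 2.51% of all genes in that fit. For Ttr the log2 fold change went from 4.08 to -0.68, for Slc4a5 from 3.43 to -0.44, for Kcne2 from 2.77 to 0.29 and for Cldn2 from 2.83 to 0.12. Col9a3 was higher in EE without overlap, yet its 0.85 became 0.13 without EE mouse 1. Of the genes named with an unadjusted p below 0.05, Ttr and Slc4a5 changed sign in the fit without EE mouse 1.

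Transcripts of the meninges and of fibroblasts also varied by mouse. Of 26 tested, none was higher and 10 were lower in EE at an unadjusted p below 0.05, against 2.23% of all genes lower. The median of the list was -0.49 with a pooled SD of 0.39, and -0.26 without SC mouse 3. The list summed to 480, 750 and 871 CPM in SC and to 558, 447 and 549 CPM in EE, so that SC mice 2 and 3 were high and SC mouse 1 was among the EE mice. Ogn, the osteoglycin gene, was at 8.90, 11.0 and 15.5 CPM in SC and at 6.97, 5.00 and 7.90 CPM in EE, without overlap. Ptgds, the prostaglandin D synthase of the leptomeninges, was at 181, 360 and 440 CPM in SC and at 240, 161 and 232 CPM in EE, with overlap. Fmod (-1.31), Slc22a6 (-1.01) and Aldh1a2 (-0.94) overlapped likewise, and without SC mouse 3 Fmod was at -0.77 and Ptgds at -0.36. In CBP-ifKOs the median of the list was 0.47, the opposite direction, but single mice stood out there as well. On a scale common to the 12 libraries, Ptgds was at 139, 176 and 478 CPM in SC-housed CBP-ifKOs and at 827, 264 and 338 CPM in EE-housed ones. Fmod was at 2.39, 3.47 and 18.3 CPM and at 28.4, 6.30 and 12.5 CPM in the same mice. The collagens, Tnc and Adamts2 were lower in EE alongside these meningeal genes, and the share of the meninges in their values was not tested. Of the vessel genes, Acta2 was at 23.7, 24.3 and 55.2 CPM in SC and at 24.7, 13.1 and 22.5 CPM in EE, set by SC mouse 3, and the endothelium and pericyte list had 3 of 28 members lower and none higher (2.23% of all genes were lower), with Vwf (-0.39) and Myl9 (-0.45) among them. Without SC mouse 3 Acta2 was at -0.25, Vwf at -0.24 and Myl9 at -0.21. The lists of ependyma, with 17 genes, and blood, with 5, had no member at an unadjusted p below 0.05. Other lists also changed in count without EE mouse 1, with members lower in EE going from 0 to 6 for ependyma, from 3 to 6 for stem cells and young neurons, from 2 to 5 for astrocytes, from 4 to 2 for immediate early genes and from 3 to 0 for interneurons. Of all genes 2.23% were lower with all 6 mice and 2.51% without EE mouse 1.

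**Figure D4:**
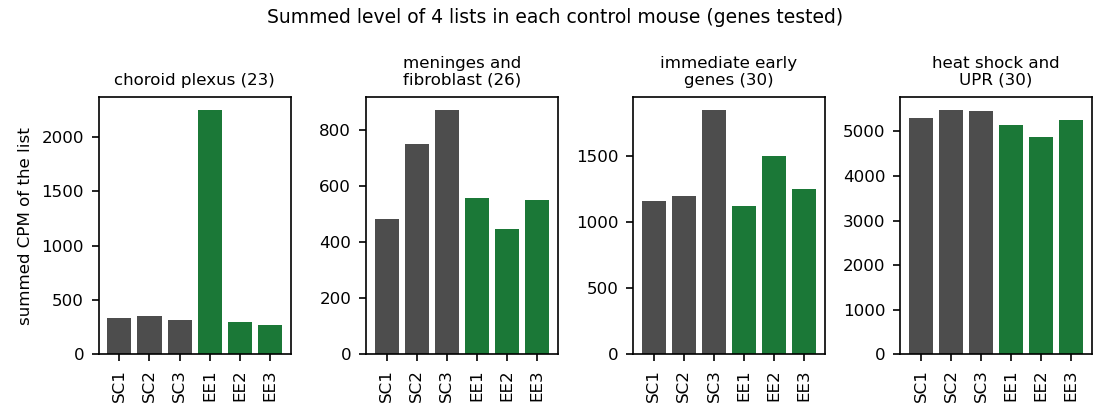
Bars give the summed CPM of the tested members of 4 lists in each of the 3 SC mice (gray) and the 3 EE mice (green). EE mouse 1 stands apart for the choroid plexus, SC mice 2 and 3 for the meninges and fibroblast list, and SC mouse 3 for the immediate early genes, while the heat shock and unfolded protein response list is lower in each EE mouse by a small margin.

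The levels of Ndufs5, Dcdc2b and Hdac1 differed within the SC group as well as between the groups. Ndufs5, a subunit of respiratory complex I, was at 3.996, 0.778 and 3.80 CPM in SC and at 0.683, 0.833 and 0.751 CPM in EE. Dcdc2b, a doublecortin domain gene, was at 5.92, 1.81 and 5.00 CPM in SC and at 1.80, 1.48 and 1.29 CPM in EE. The histone deacetylase gene Hdac1 was at 8.79, 5.07 and 8.38 CPM in SC and at 5.14, 5.64 and 5.29 CPM in EE. In all 3 genes SC mouse 2 had a level near the EE mice. The log2 fold changes were -1.92, -1.48 and -0.47, and without SC mouse 2 Ndufs5 and Dcdc2b passed an adjusted p of 0.05 in edgeR. In CBP-ifKOs the same 3 genes were separate by housing on a scale common to the 12 libraries, with Ndufs5 between 4.07 and 5.96 CPM in SC and between 0.641 and 1.13 CPM in EE. On GRCm38, Ndufs5 lies on chromosome 4 from 123712710 to 123718202, Dcdc2b on chromosome 4 from 129608331 to 129614257 and Hdac1 on chromosome 4 from 129516104 to 129542713. Reads of Ndufs5 can be shared with processed pseudogenes such as BC002163, which moved the other way, from a mean of 7.17 CPM in SC to 12.6 CPM in EE.

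The ranking was then set beside the CBP-ifKOs, which share no mouse with the control groups. All 12 ranked genes higher in EE were also higher in EE-housed CBP-ifKOs, 9 of them at an unadjusted p below 0.05, and of the 12 lower in EE 10 were lower there, 6 of them at that p. In CBP-ifKOs 1567 of 18251 genes (8.59%) were below that p, in either direction, and 2 (0.011%) passed an adjusted p of 0.05 in edgeR. Nptx2 had a log2 fold change of 0.68 in CBP-ifKOs, Aldh1a1 one of 0.38, Wipf3 one of 0.30, Sox9 one of -0.41 and St3gal1 one of -0.55, close to those in control mice. Lingo3 had 0.33 and Robo3 0.13, below the control values. Slc7a11 had -0.08 against -0.59, and Colec12 had 0.21 against -0.57. The difference between genotypes passed an adjusted p of 0.05 in edgeR's interaction test for 0 of 18251 genes, and 574 (3.15%) had an unadjusted p below 0.05. Among them were the ranked genes Slc7a11, Mfsd4a, Colec12, Gm20219 and Rnf41. The ranked genes were picked by their change in control mice, which is also a part of the interaction. That choice favors a low interaction p and a larger value in control mice than in CBP-ifKOs. All counts of the CBP-ifKO libraries are even, and with these counts halved 1300 genes (7.43%) were below an unadjusted p of 0.05 in CBP-ifKOs and 536 (3.06%) in the interaction test, of which again 0 passed the adjusted threshold.

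Over the 674 control genes at an unadjusted p below 0.05, 72.1% had the same direction in CBP-ifKOs, against 59.3% of all genes tested, and 146 (21.7%) passed that p in the same direction, against 6.22% of all genes. Opposite changes at that p made up 2.08% of the 674 and 2.38% of all genes. Without EE mouse 1, where 778 genes (4.41%) were below that p, the shares were 61.7% for the same direction and 13.4% for the same direction at that p, against 54.0% and 5.52% of all genes, so that the shares were smaller without this mouse. Genes are not independent replicates, and the labels do not say which mice shared a box. The late response list had 9 members higher and 1 lower in CBP-ifKOs at an unadjusted p below 0.05, with a median of 0.15, and the heat shock and unfolded protein response list 0 higher and 6 lower, with a median of -0.07, where 3.97% and 4.62% of all genes were higher and lower.

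**Figure D5:**
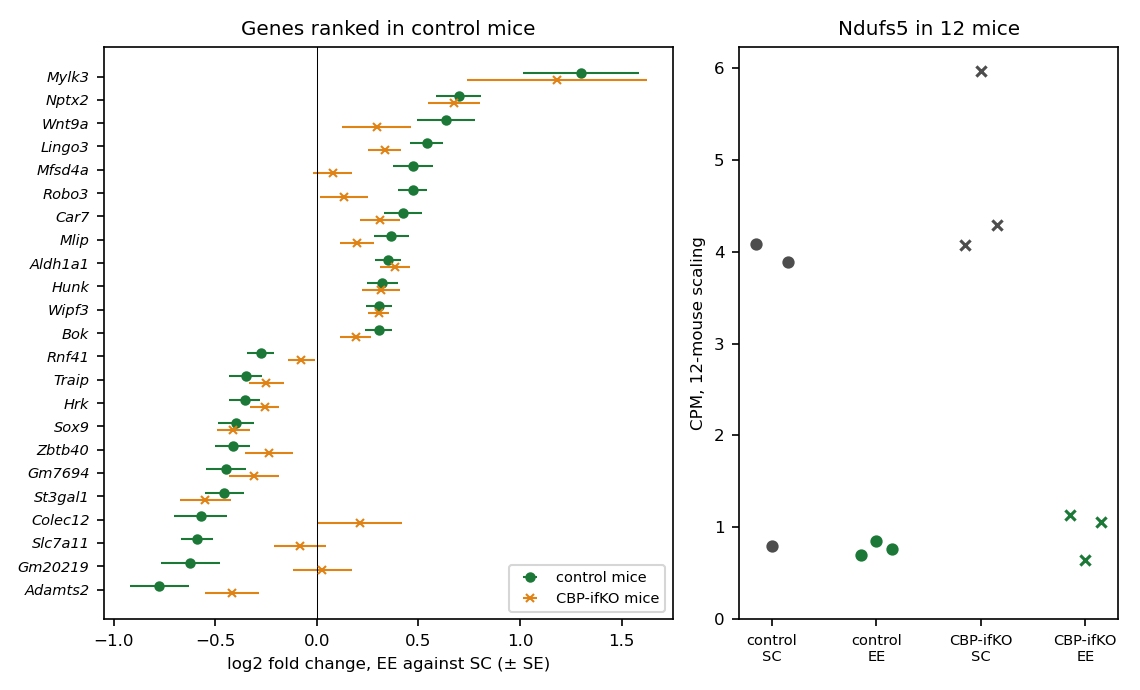
Left, log2 fold change between EE and SC with its standard error for genes ranked in control mice (green) and for the same genes in CBP-ifKOs (orange). Right, Ndufs5 in CPM in each of the 12 mice, where the CBP-ifKOs are separate by housing and SC mouse 2 of the control groups lies with the EE mice.

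Whether the counting used the strand is not given in the sources used here, so genes that share exonic bases with a gene on the opposite strand carry its reads if it did not. Among the genes described these are Wipf3, Mfsd4a, Man1a, Dcdc2b, Hopx, Col5a1, Penk, Tef, Hsp90b1, Pdia6, Nos1, Tnc, Doc2b, Pex5l, Syt4, Dlx1, Mt2, Col9a3, Jun, Ndrg1, Hs3st4, Manf, Hspa1a, mt-Nd5 and Bdnf.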

How the data were processed

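Hippocampal RNA of 12 mice was sequenced as 50 bp single-end reads in 2 runs each. Per the labels, the authors used FastQC 0.11.8, Trim Galore 0.6.4, STAR 2.6.1 and DESeq2 1.30.1 on mm10, and per the study's methods reads over exons were counted with Rsubread. That the 2 runs of a mouse were merged is taken from the column names of the table and the sample titles. The deposited table holds whole-number read counts for each gene, not normalized, in 12 columns. The strand setting of the counting is not given in the sources used here.

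The 6 control libraries were tested with edgeR 4.0.16 in R 4.3.3 (filterByExpr, TMM, quasi-likelihood F test, 1 coefficient for housing) with Benjamini-Hochberg adjustment over all 17372 genes tested and a threshold of 0.05. CBP-ifKOs and the interaction came from 1 fit of all 12 mice, where control and CBP-ifKO mice share the estimate of the spread. Values per mouse are TMM-scaled CPM. A floor of 3 counts equals 0.107 to 0.112 CPM in the control libraries, and intervals of that kind cover counting error only. Symbols were matched for 55230 of 55471 genes. Lists were described by counts and medians. The genes named were taken, though not each of them is printed, from those passing the threshold, the 12 protein-coding genes with the smallest p in each direction, the 6 in each direction with the largest fold change among separated groups at a mean of 1 CPM or more, up to 4 members of each list with a low p plus the member with the most counts, 15 genes of interest for enrichment, and the 5 in each direction with the smallest p without EE mouse 1. Members, lists and tests were chosen with earlier results of these data known. The fit was tested on simulated data. Alternatives were DESeq2 1.42.0, its size factors, limma 3.58.1 voom with sample weights, other filters, a choroid plexus covariate, all 12 mice, a replicate block and leaving out each mouse. Promoters and motifs were read from RefSeq on GRCm38.p6. The values of 1 gene are not reported here.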

Additional observations from a re-analysis of the deposited data

How the results depend on the processing

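The count of 1 called gene between EE and SC in control mice was also 1 with a filter of 1 CPM in 3 mice, DESeq2 size factors, a choroid plexus covariate and voom with sample weights. It was 14 with DESeq2, 34 with no filter (22 higher and 12 lower, 6 of them outside the filter used), and 0 in the fit of all 12 mice, both with CBP-ifKO counts as deposited and halved, where 768 and 901 genes had an unadjusted p below 0.05. Leaving out 1 mouse at a time gave 1 to 3 genes, with Cadps2 added without EE mouse 2 and Dcdc2b and Ndufs5 added without SC mouse 2. Halving the CBP-ifKO counts took the calls in CBP-ifKOs from 2 to 0. The cause of these differences was not tested. With the replicate number as a block, 4 genes were called, among them Ighm, Robo3 and Slc7a11, and 1397 of 17372 had an unadjusted p below 0.05. The deviations of same-numbered mice correlated at 0.207, 0.338 and 0.037 across genes, and those of differently numbered mice between -0.282 and 0.090. SC mouse 3 correlated best with EE mouse 1, at 0.040. Whether the numbers pair the mice was not tested. Of the log2 fold changes of the named genes, Ttr reversed with the choroid plexus covariate (-0.015), and leaving out each mouse took Ttr from -0.68 to 4.66 and Slc4a5 from -0.44 to 4.003, the negative values without EE mouse 1. Genes with overlapping groups reversed as well when a mouse was left out, namely Fos (-1.17 to 0.88), Egr1 (-0.39 to 0.25) and Arc (-0.33 to 0.51) without SC mouse 3, Crebbp (-0.091 to 0.015) without SC mouse 2, Npas4 (-0.19 to 0.66) without SC mouse 1, Creld2 (-0.16 to 0.039) without EE mouse 2 or SC mouse 1, and Hsp90ab1 (-0.013 to 0.026) without EE mouse 3 or SC mouse 2. Arc was also reversed without EE mouse 1 (0.14) and with the covariate (0.00523), and Creld2 with voom (0.023). Another 1562 values of named genes kept their direction and side of the threshold. Genes with levels near the floor of 3 counts are limited by depth.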
